A study of Mus musculus with 38 samples.

Results

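Immediate early genes are transcribed within minutes of a burst of neuronal firing, by transcription factors that are already present in the cell, and most of their mRNAs decay again within hours. The 10 genes described here were chosen by their symbols as those induced by activity: the transcription factors Fos, Fosb, Junb, Egr1, Egr4, Npas4 and Nr4a1, the synaptic protein Arc, the phosphatase Dusp1 and the antiproliferative gene Btg2. They are 10 of the 54165 genes in the count table. Calcium entry and MAPK signaling reach their promoters mainly through CREB, which binds the cAMP response element (CRE), and through serum response factor. In dissected brain tissue their levels are known to follow what an animal did shortly before it was killed, so they are widely used as a readout of recent activity.

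RNA-seq was performed on bulk prefrontal cortex (PFC) and hypothalamus (Hypo) of adult FVB/NJ mice, to ask how Ube3a dosage and sex combine in each region. Ube3a2X mice were homozygous for a transgene that adds Ube3a copies with a tagged C terminus, on top of the endogenous gene, and wild-type (WT) littermates from the same heterozygous matings were the controls. All mice were killed by cervical dislocation, PFC was taken as punches from coronal sections, and Hypo was pulled from the ventral brain with tweezers. Each library came from 1 mouse. PFC was measured in 5 WT females, 5 Ube3a2X females, 5 WT males and 5 Ube3a2X males, and Hypo in 4 WT females, 5 Ube3a2X females, 4 WT males and 5 Ube3a2X males. These 38 libraries came from 25 mice, of which 13 gave both tissues: 5 Ube3a2X females, 4 Ube3a2X males, 1 WT female and 3 WT males. A stimulus before death, and the time between handling and death, are not given in the sources used here.

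Counted reads per library ran from 36.9 to 69.1 M in PFC and from 39.0 to 380.8 M in Hypo. Ube3a ranged from 110 to 355 CPM (counts per 1000000 counted reads) over the WT libraries and from 655 to 2188 CPM over the Ube3a2X libraries. The groups labelled PFC and Hypo separated on their defining markers: the summed level of the cortical projection neuron list was 1859 to 2448 CPM in PFC and 7.02 to 17.4 CPM in Hypo. The summed hypothalamic list was 410 to 2114 CPM in Hypo and 1.05 to 3.35 CPM in PFC. One library, the Hypo of WT female 471, held 4881 CPM of the pituitary list, where the other Hypo libraries held 15.3 to 927 CPM, and 321 CPM of the blood list against 60.2 to 241 CPM elsewhere. Libraries are named below by their mouse number.

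Promoter sequence was examined because Fos, Fosb and Nr4a1 varied together across mice in both tissues, while Btg2, with Npas4, had the lowest correlation with Fos in PFC. The windows are the 250 bases before the annotated start in RefSeq (GRCm38.p6), written 5′ to 3′ on the strand of the gene, and 8 of the 10 genes matched an entry, all but Arc and Egr1. Capitals mark TGACG, the short core of the CRE, or its reverse complement CGTCA, and in Btg2 the full palindrome TGACGTCA. The Fos window lies at chr12:85473640-85473889 (plus strand), the Fosb window at chr7:19310046-19310295 (minus strand), the Nr4a1 window at chr15:101266596-101266845 (plus strand) and the Btg2 window at chr1:134079156-134079405 (minus strand).
Fos: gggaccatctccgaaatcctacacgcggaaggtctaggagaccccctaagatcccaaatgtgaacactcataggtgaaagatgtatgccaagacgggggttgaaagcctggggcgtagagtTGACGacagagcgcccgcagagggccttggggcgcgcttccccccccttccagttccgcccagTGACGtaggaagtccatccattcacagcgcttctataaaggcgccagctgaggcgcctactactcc
Fosb: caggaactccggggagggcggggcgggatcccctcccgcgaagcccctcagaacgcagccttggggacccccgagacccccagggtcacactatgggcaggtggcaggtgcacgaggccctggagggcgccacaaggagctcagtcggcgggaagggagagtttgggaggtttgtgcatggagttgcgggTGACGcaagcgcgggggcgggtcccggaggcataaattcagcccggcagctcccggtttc
Nr4a1: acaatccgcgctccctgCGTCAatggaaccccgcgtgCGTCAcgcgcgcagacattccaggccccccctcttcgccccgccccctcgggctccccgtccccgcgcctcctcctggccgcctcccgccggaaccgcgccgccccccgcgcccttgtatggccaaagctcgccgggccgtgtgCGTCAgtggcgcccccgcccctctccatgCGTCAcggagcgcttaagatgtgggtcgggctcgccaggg
Btg2: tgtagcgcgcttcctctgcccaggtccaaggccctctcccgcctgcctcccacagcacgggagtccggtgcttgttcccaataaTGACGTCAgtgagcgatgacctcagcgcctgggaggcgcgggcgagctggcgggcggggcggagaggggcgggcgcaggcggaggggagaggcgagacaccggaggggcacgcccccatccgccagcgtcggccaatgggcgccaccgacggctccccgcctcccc

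Both strands were searched in all windows. The short core was present in 8 of the 8 matched genes and in 17.8% of 32851 RefSeq promoter windows of the same length. The full CRE, which contains the short core on each strand, was present in Btg2 and Dusp1 and in 1.55% of all windows. In the Fos window the cores begin 129 and 66 bases before the start, and a TATAAA box, found in 7.59% of all windows, begins 33 bases before it. Nr4a1 carries 4 cores, beginning 233, 213, 69 and 40 bases before the start, and Fosb 1, beginning 60 bases before it. Annotated exons cover 7 bases of the Fosb window, 49 of the Dusp1 window and all 250 of the Npas4 window, and none of the other 5. The CArG box, the serum response factor motif, was in 0 of the 8 windows (1.47% of all), and the AP-1 motif TGACTCA was in 0 of the 8 (4.46% of all), which says only that these letters are not in these windows. Btg2, which with Npas4 had the lowest r with Fos in PFC, carries the same core as Fos, Fosb and Nr4a1.

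All 10 genes passed the filter on low counts in PFC and 9 did in Hypo, where Egr4 had 12 to 201 reads per library and was left out of the tests. In bulk tissue, fewer cells of a type and less RNA per cell cannot be told apart, which holds for every level below. Per kilobase of exon, Egr1 and Arc had the highest median levels in PFC, at 63.9 and 55.2 CPM per kb, followed by Nr4a1 at 19.5, Dusp1 at 10.6, Junb at 10.2 and Fos at 8.39 CPM per kb. Btg2 had 5.86, Npas4 4.68, Egr4 3.85 and Fosb 2.01 CPM per kb. In Hypo the order of the median levels was Egr1 at 9.25, Fos at 8.65, Btg2 at 5.77, Dusp1 at 4.31, Nr4a1 at 3.59, Arc at 3.29, Junb at 3.0, Npas4 at 0.961, Fosb at 0.643 and Egr4 at 0.299 CPM per kb. Each gene's range over libraries overlapped that of its neighbor in the order in both tissues, so neighbors did not separate beyond their spread. Arc stood 2nd of the 10 in PFC and 6th in Hypo, and Fos 6th in PFC and 2nd in Hypo.

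**Figure D1:**
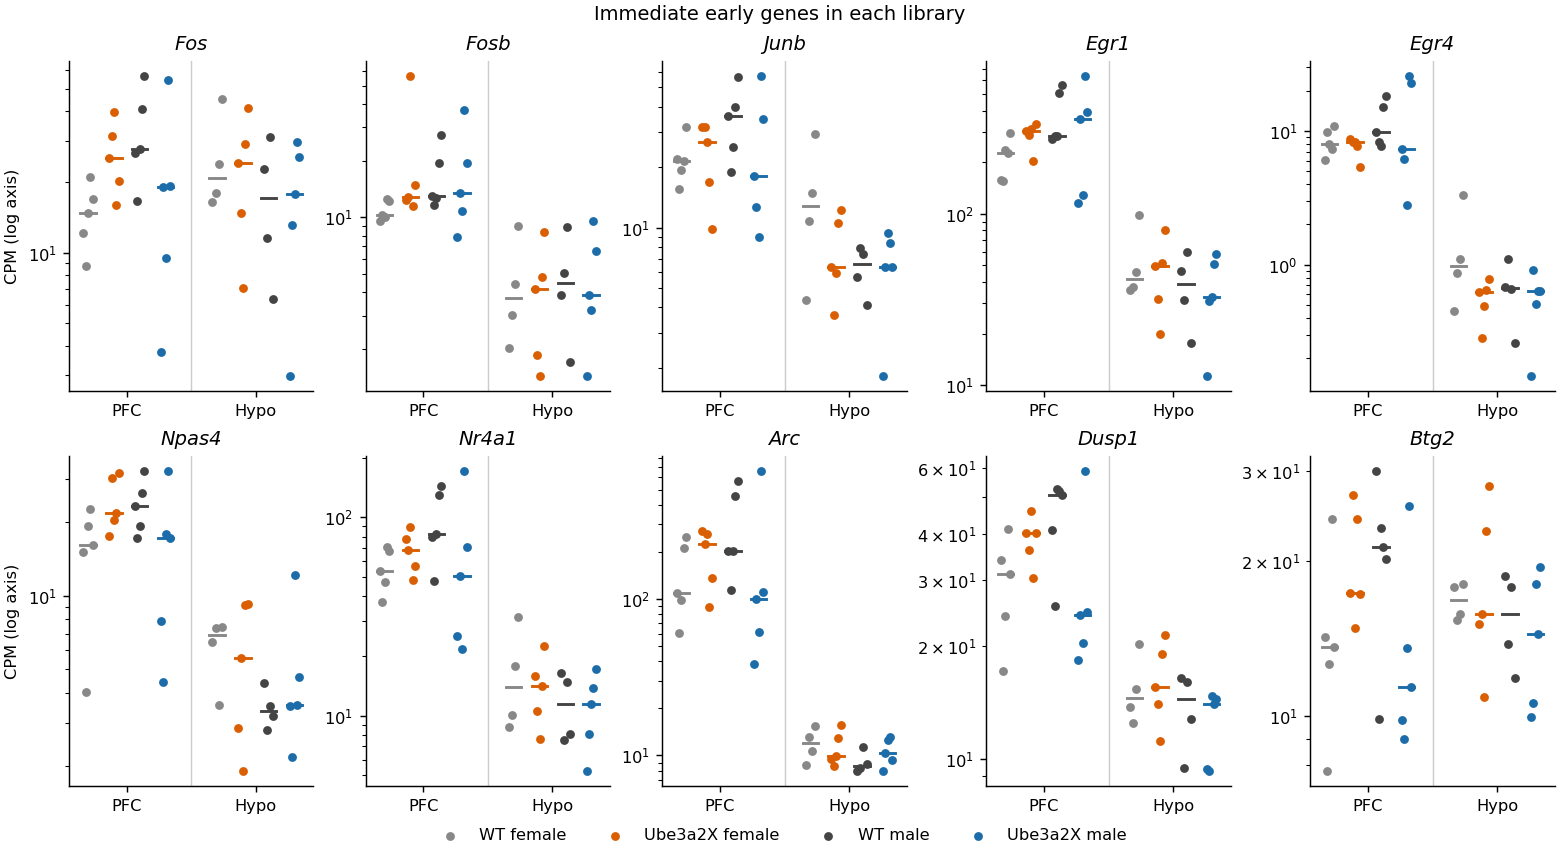
Level of each gene in CPM (log axis) in every library, by tissue, sex and genotype, with points for mice and bars for group medians. Arc and Egr1 are the genes whose lowest PFC library (38.6 and 116 CPM) lies above their highest Hypo library (15.6 and 98.9 CPM).

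Fos encodes the partner of Jun proteins in the AP-1 factor and is the most used marker of recently active neurons (ENSMUSG00000021250, chromosome 12, 85473890 to 85477273, plus strand). In PFC its level ran from 3.77 CPM in Ube3a2X male 238 through a median of 19.7 to 56.6 CPM in WT male 403. In Hypo it ran from 2.97 CPM, again in Ube3a2X male 238, through a median of 20.3 to 45.2 CPM in WT female 471. Fos was thus at nearly the same median level in both tissues, with a 15.2-fold range between the lowest and the highest hypothalamus.

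Fosb, another AP-1 subunit whose truncated splice form accumulates with repeated stimulation (ENSMUSG00000003545, chromosome 7, 19302696 to 19310051, minus strand), had a lowest, median and highest PFC level of 7.85, 12.6 and 56.1 CPM. The highest was Ube3a2X female 420. In Hypo the same 3 values were 1.43, 4.01 and 9.60 CPM, and the lowest was female 420. The mouse with the highest Fosb in PFC was therefore among the lowest in Hypo, together with male 238 at 1.44 CPM. The Hypo library of female 420 was also the deepest, with 380.8 M reads where the next had 125.7 M, and the part of depth in its levels was not tested. Junb, a Jun family member of AP-1 (ENSMUSG00000052837, chromosome 8, 84974484 to 84978718, minus strand), ran from 8.99 to 56.9 CPM in PFC, with a median of 23.6, and from 1.81 to 29.4 CPM in Hypo, with a median of 6.90. Exons of Junb and of Prdx2, on the opposite strand, share 173 bases, and since the strand setting of the counting is not stated in the sources used here, reads of the pair may be split uncertainly.

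Egr1, a zinc finger factor induced through MAPK signaling (ENSMUSG00000038418), ran from 116 CPM in male 238 through 287 to 635 CPM in Ube3a2X male 267 in PFC, and from 11.3 CPM in male 238 through 41.5 to 98.9 CPM in WT female 471 in Hypo. Its relative Egr4 (ENSMUSG00000071341, chromosome 6, 85511121 to 85513589, minus strand) ran from 2.79 through 8.28 to 25.7 CPM in PFC and from 0.146 through 0.643 to 3.31 CPM in Hypo. No hypothalamus library reached the median PFC level of either gene. Npas4, which is induced by calcium entry and shapes inhibitory synapses (ENSMUSG00000045903, chromosome 19, 4984355 to 4990316, minus strand), ran from 4.04 through 19.4 to 32.6 CPM in PFC and from 1.91 through 3.98 to 12.1 CPM in Hypo. Nr4a1, an orphan nuclear receptor (ENSMUSG00000023034, chromosome 15, 101254269 to 101274795, plus strand), ran from 21.7 through 68.3 to 172 CPM in PFC and from 5.26 through 12.6 to 31.5 CPM in Hypo. The lowest PFC libraries of both genes lay within the range of their Hypo libraries.

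Arc, whose mRNA travels to active synapses and whose protein promotes removal of AMPA receptors (ENSMUSG00000022602, chromosome 15, 74669083 to 74672570, minus strand), had the widest PFC range of the 10, 17.1-fold, from 38.6 CPM in male 238 through 169 to 660.0 CPM in male 267. In Hypo Arc had the narrowest range of the 10, 1.97-fold, from 7.93 through 10.1 to 15.6 CPM. The 2 ranges did not overlap. Dusp1, a phosphatase that switches off MAP kinases (ENSMUSG00000024190, chromosome 17, 26505590 to 26562128, minus strand), ran from 17.2 through 35.1 to 58.8 CPM in PFC and from 9.30 through 14.3 to 21.5 CPM in Hypo. Its exons share 11 bases with exons of Ergic1, on the opposite strand, and none with those of the other annotated genes inside its span. Btg2, which restrains proliferation and promotes mRNA decay (ENSMUSG00000020423, chromosome 1, 134075170 to 134079120, minus strand), ran from 7.80 through 16.1 to 30.1 CPM in PFC and from 9.93 through 15.8 to 28.1 CPM in Hypo. Like Fos, Btg2 had nearly equal medians in both tissues.

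The difference between tissues was tested with edgeR's quasi-likelihood test on all 38 libraries, over the 12569 genes kept in both tissues. RNA integrity (RIN) was a covariate. This fit had no term for the mouse, although 13 mice gave both tissues, so its p-values take the libraries as independent. The p-values of tests within a tissue, below, measure the spread between these mice. Of the 9 genes tested, 7 were higher in PFC and 0 lower at an adjusted p under 0.05. Over all genes tested 66.5% were called, 32.0% as higher and 34.4% as lower in PFC, and the median log2 difference was 1.82 for the 9 genes and -0.02 for all genes. Arc differed most, by 3.93 on the log2 scale (SE 0.46, edgeR adjusted p = 3.36e-09), and Egr1 next, by 3.04 (SE 0.39, edgeR adjusted p = 1.90e-08). The differences were 2.31 for Nr4a1 (edgeR adjusted p = 3.88e-06), 2.16 for Npas4 (5.91e-06), 1.82 for Fosb (0.0020), 1.51 for Junb (0.0023) and 1.22 for Dusp1 (1.18e-05). Fos differed by 0.37 (95% interval -0.66 to 1.40, edgeR adjusted p = 0.533) and Btg2 by 0.12 (95% interval -0.39 to 0.62, edgeR adjusted p = 0.694), neither of which passed. Every PFC library was above every Hypo library for 2 of the 9 genes, Arc and Egr1, where 13.3% of all genes kept in both tissues separated in this direction and 8.93% in the other. Mean RIN was 7.67 in PFC and 8.87 in Hypo.

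Within the 13 mice that gave both tissues, PFC was the higher tissue in 13 of 13 mice for Arc, Egr1, Egr4, Fosb, Npas4, Nr4a1 and Dusp1. The same-mouse log2 difference of Arc ran from 2.28 to 5.65 with a median of 3.77, and that of Egr4, which was not in the test above, from 2.39 to 5.40 with a median of 3.81. Junb was higher in PFC in 11 mice, Fos in 9 mice (-1.02 to 2.49, median 0.34) and Btg2 in 7 mice (-0.70 to 0.83, median 0.08). When the mouse entered the edgeR fit as a block together with RIN, 4 of the 9 genes were called (39.7% of all genes): Arc, Egr1, Nr4a1 and Dusp1. Fosb (log2 difference 1.52, edgeR adjusted p = 0.128), Junb (0.88, 0.437) and Npas4 (1.56, 0.0636) were lost under that block, and with the mouse as a block but without RIN 7 of the 9 were called (73.0% of all genes).

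Other genes of the same biology were taken as lists. Between tissues, without the mouse as a block, 66.5% of all genes were called, 32.0% higher and 34.4% lower in PFC. Of 20 other activity-regulated genes tested in that fit, 13 were called higher and 2 lower in PFC, and of 9 late response genes, 4 were called higher and 4 lower. Of 14 upstream genes, which hold kinases and factors that act before the immediate early genes, 12 were called higher and 1 lower. These lists were not fitted with the block.

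The spread between mice of the same tissue, sex and genotype was then measured as the SD of log2 CPM within groups. In PFC all 10 genes were above the 95th percentile of the 12824 genes kept, which 5% of genes exceed by definition. Arc had the 9th largest spread of all genes, an SD of 1.06, Fos the 18th (0.86), Npas4 the 29th (0.79), Egr4 the 33rd (0.76), Junb the 36th (0.74) and Nr4a1 the 39th (0.73). Fosb (0.70), Egr1 (0.64), Btg2 (0.55) and Dusp1 (0.48) followed, where the median over all genes was 0.19. In Hypo 6 of 9 genes were above the 95th percentile of 13964 genes: Fos (SD 1.05), Fosb (1.0), Junb (0.84), Egr1 (0.80), Npas4 (0.77) and Nr4a1 (0.67). Btg2 (0.40, 92.1st percentile), Dusp1 (0.35, 87.3rd percentile) and Arc (0.32, 82.9th percentile) were below it, and the median over all genes was 0.20. The gene with the largest spread of the 10 in PFC, Arc, was therefore the one with the smallest of the 9 in Hypo. Without Ube3a2X male 267, 9 of 10 genes remained above the 95th percentile in PFC, with Dusp1 at an SD of 0.37, and without WT female 471, whose pituitary and blood markers were raised, 8 of 9 were above it in Hypo.

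**Figure D2:**
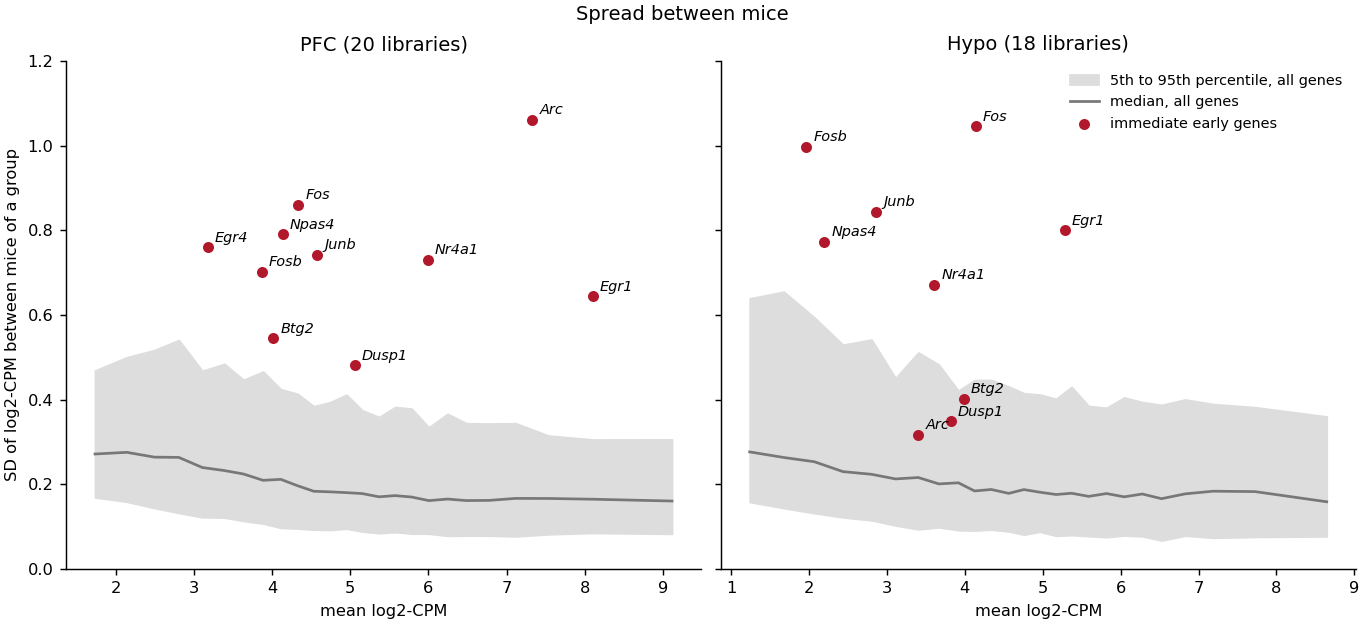
SD of log2 CPM within groups against mean log2 CPM in each tissue, with the 10 genes as labelled points, all genes as a line for the median and a grey band from the 5th to the 95th percentile. In PFC the genes lie above the median of all genes (0.19), with Arc highest at 1.06, whereas in Hypo Arc lies at 0.32.

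The extremes fell on few mice. In PFC, Ube3a2X male 267 had the highest level of 6 of the 10 genes and a mean rank of 19.5 of 20, and WT male 403 the highest of 2. The PFC library of male 267 had a RIN of 6.7, the lowest of the 38 libraries, where the PFC median was 7.6. The lowest PFC levels were those of Ube3a2X male 238 for 4 genes, of Ube3a2X male 258 for 3 and of WT female 259 for 3. In Hypo, male 238 had the lowest level of 7 of the 10 genes and a mean rank of 1.8 of 18, while WT female 471 had the highest of 5 and Ube3a2X female 468 the highest of 3. WT male 423, with a mean rank of 3.8 in Hypo, had a RIN of 6.8 there, where the Hypo median was 8.95. Correlations of the genes with RIN are given below.

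How far the genes moved together was described by the correlation of their log2 CPM, centered on the 4 groups of each tissue, so that group differences do not enter. All points of a tissue share their library and its depth. In PFC all 45 pairs of the 10 genes were positive, with a median r of 0.643, from 0.196 for Fosb with Btg2 to 0.941 for Arc with Nr4a1, and 35 pairs exceeded 0.5. In Hypo all 36 pairs of the 9 genes were positive, with a median of 0.734, from 0.254 for Fosb with Npas4 to 0.982 for Fos with Egr1. The mean over all pairs of genes was 0.0007 in PFC and 0.0034 in Hypo.

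**Figure D3:**
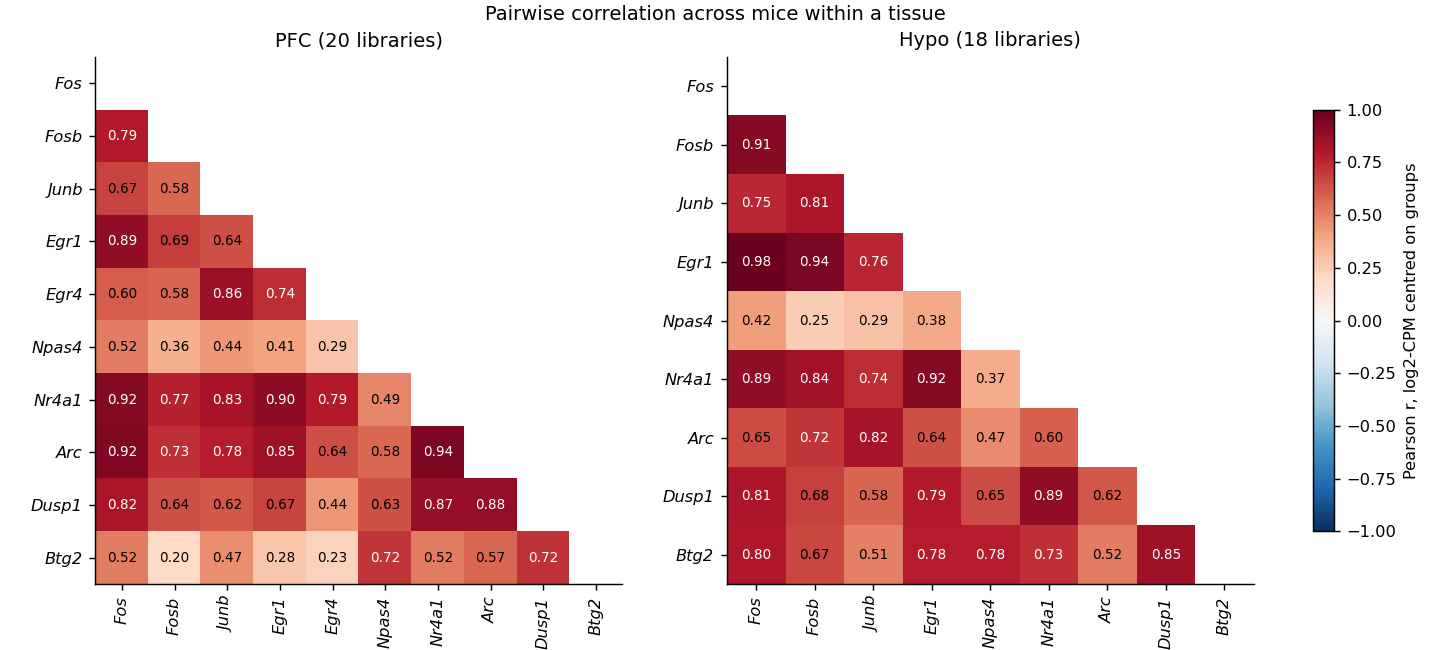
Pairwise Pearson r of log2 CPM centered on groups, over 20 PFC and 18 Hypo libraries, with each cell a pair of genes and color giving r. All cells are positive, and Btg2 and Npas4 make up most of the pale cells (for example 0.196 for Fosb with Btg2 in PFC and 0.254 for Fosb with Npas4 in Hypo).

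Against Fos in PFC, Arc had an r of 0.92 (permutation p = 1e-05, adjusted p = 0.0427, rho 0.908) and Nr4a1 an r of 0.92 (permutation p = 1e-05, adjusted p = 0.0427, rho 0.940), where 1e-05 is the smallest p that the permutations can give. These were 2 of the 9 genes tested against Fos that passed adjustment over 12823 genes, of which 0.0468% passed. With RIN and the surrogate variables removed from the values, 6 of the 9 passed (Arc, Nr4a1, Egr1, Dusp1, Fosb and Junb), and 0.866% of all genes did. Egr1 (r 0.89, permutation adjusted p = 0.0570), Dusp1 (0.82, 0.0570) and Fosb (0.79, 0.0641) fell just short, and Junb (0.67) and Btg2 (0.52, rho 0.338, permutation p = 0.0429) passed only before adjustment. Egr4 (r 0.60, permutation p = 0.0928) and Npas4 (r 0.52, permutation p = 0.077) did not pass by r. By rho, at 0.544 and 0.535, their unadjusted permutation p was 0.0422 and 0.0298, where that of Btg2 was 0.187. In all, 7 of 9 had a positive r at an unadjusted p under 0.05, against 2.47% of all genes, and the median r was 0.792 against 0.001 for all genes. Without the 2 libraries farthest from the median of Fos, males 267 and 238, Arc and Nr4a1 each kept an r of 0.90, and Npas4 and Btg2 fell to 0.31. The count of genes that passed ran from 0 to 3 when single libraries were left out, while r ran from 0.877 to 0.947 for Arc and from 0.871 to 0.953 for Nr4a1.

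In Hypo, Egr1 followed Fos most closely of all genes, with an r of 0.98 (permutation p = 1e-05, adjusted p = 0.0698, rho 0.963), and Fosb (0.91), Nr4a1 (0.89), Dusp1 (0.81), Btg2 (0.80), Junb (0.75) and Arc (0.65) were also positive at an unadjusted p under 0.05. Npas4 had an r of 0.42 (permutation p = 0.146). Of the 8 genes, 0 passed adjustment by the permutation test (0% of 13963 genes passed) and 7 had a positive r at an unadjusted p under 0.05, against 11.4% of all genes. With 1000000 permutations, a number raised after seeing the data, Egr1 (adjusted p = 0.0140), Fosb (0.0186) and Nr4a1 (0.0186) passed, and 0.0286% of all genes did, with 11.6% at a positive r and an unadjusted p under 0.05. Btg2 therefore had an r with Fos of 0.52 in PFC and 0.80 in Hypo, and Arc one of 0.92 in PFC and 0.65 in Hypo, and these differences between tissues were not tested. Without female 420 and male 238, the 2 libraries farthest from the median, r was 0.97 for Egr1 and 0.26 for Npas4.

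Outside the 10, the genes most like Fos by r in PFC were Dusp6 (0.90), which dephosphorylates ERK, Spry4 (0.88), Sik1 (0.88), Spry2 (0.86) and Irf2bp2 (0.85), over 20 libraries. In Hypo they were Sik1 (0.81), a kinase induced by cAMP signaling, Serp1 (0.80), 1700016P03Rik (0.79), Rnf180 (0.79) and Dusp6 (0.79), over 18 libraries. Ranked among all genes by r with Fos in PFC, Arc was 1st, Nr4a1 2nd, Egr1 4th, Dusp1 13th, Fosb 18th, Junb 76th, Egr4 147th, Npas4 256th and Btg2 264th. In Hypo Egr1, Fosb and Nr4a1 were the first 3, Dusp1 the 5th, Btg2 the 6th, Junb the 16th, Arc the 126th and Npas4 the 1844th. Of 22 other activity-regulated genes kept in PFC, 17 had a positive r with Fos at an unadjusted permutation p under 0.05 (median r 0.712), against 2.47% of all genes, and 2 of them, Dusp6 and Trib1, passed adjustment, against 0.0468%. In Hypo 13 of 22 had a positive r at an unadjusted p under 0.05, against 11.4% of all genes (median r 0.601), and 0 of 22 passed adjustment by the permutation test. Of the late response genes, which rise hours after activity, 5 of 10 in PFC (2.47% of all genes) and 1 of 9 in Hypo (11.4% of all genes) had a positive r at an unadjusted p under 0.05, with Bdnf at 0.84 in PFC. Of 14 upstream genes, 0 in PFC and 0 in Hypo did by the permutation test, and 0 in PFC and 3 in Hypo had a negative r at that level, where 1.19% of all genes in PFC and 11.8% in Hypo had.

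Strand specificity, the percent of reads on the expected strand, split the PFC libraries into 6, all Ube3a2X, at 97.4 to 99.1%, and 14, of which 10 were WT, at 91.5 to 95.6%. Within each cluster all 9 genes correlated positively with Fos, with a median r of 0.875 in the 6 and 0.775 in the 14. The 6 hold males 238 and 267, the libraries farthest from the median of Fos in PFC, and r in that cluster without them was not tested. None of the 10 genes in PFC or the 9 in Hypo passed a test of correlation with RIN, intronic bases, strand specificity or 5′ to 3′ coverage, with a smallest permutation adjusted p of 0.151 for Junb with the percent of intronic bases in Hypo, where 2018 of 13964 genes passed. Before adjustment, permutation p was 0.0247 for Junb with 5′ to 3′ coverage in PFC (r 0.453), 0.0484 for Egr4 with RIN in PFC (r -0.414) and 0.0242 for Fosb with strand specificity in Hypo (r -0.546). In Hypo the summed blood markers had an r of 0.57 with Fos (permutation p = 0.0184, adjusted p = 0.442 over 24 relations) and the summed pituitary markers one of 0.46 (permutation p = 0.0446, adjusted p = 0.535), and the part of either in the levels of these genes was not tested.

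Whether a mouse that was high in PFC was also high in Hypo was asked in the 13 mice with both tissues. The correlation between tissues was positive for 8 of 9 genes, with a median r of 0.432 against -0.055 for all genes, but 0 of the 9 passed the permutation test after adjustment (0% of 12569 genes passed). Egr1 (r 0.573, permutation p = 0.0408, rho 0.346) and Fos (r 0.572, permutation p = 0.0446, rho 0.385) had a p under 0.05 before adjustment, both with an adjusted p of 0.749, where 3.27% of all genes had a positive r at that level. Btg2 had an r of 0.533 (permutation p = 0.0621), Dusp1 0.459, Nr4a1 0.432, Npas4 0.383, Fosb 0.213, Arc 0.191 and Junb -0.176. With the values centered on groups the median r was 0.349 and 0 of the 9 had a permutation p under 0.05.

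The correlation between tissues moved with single mice, up as well as down. Without the 2 mice farthest from the median of PFC Fos, males 403 and 238, the r of Fos was -0.039, and leaving out single mice moved it from 0.116, without male 238, to 0.748, without female 420. Chosen in the same way for each gene, the 2 mice left out lowered r to -0.10 for Arc, 0.087 for Npas4, 0.24 for Btg2, 0.26 for Egr1, 0.40 for Dusp1 and -0.44 for Junb, and raised it to 0.759 for Fosb (unadjusted permutation p = 0.00278) and to 0.536 for Nr4a1. Fosb ran from 0.013, without male 267, to 0.789, without female 420, whose Fosb was highest in PFC and lowest in Hypo, and whose Hypo library held the 380.8 M reads. Egr1 ran from 0.316 to 0.644 and Junb from -0.385 to -0.008. Without male 238, the library lowest for 4 of the 10 genes in PFC and for 7 in Hypo, the median r over the 9 genes was 0.244. The Hypo library of male 238 also had the highest percent of intronic bases in Hypo, 9.52, with male 404 next at 8.41. The part of this in the agreement was not tested.

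**Figure D4:**
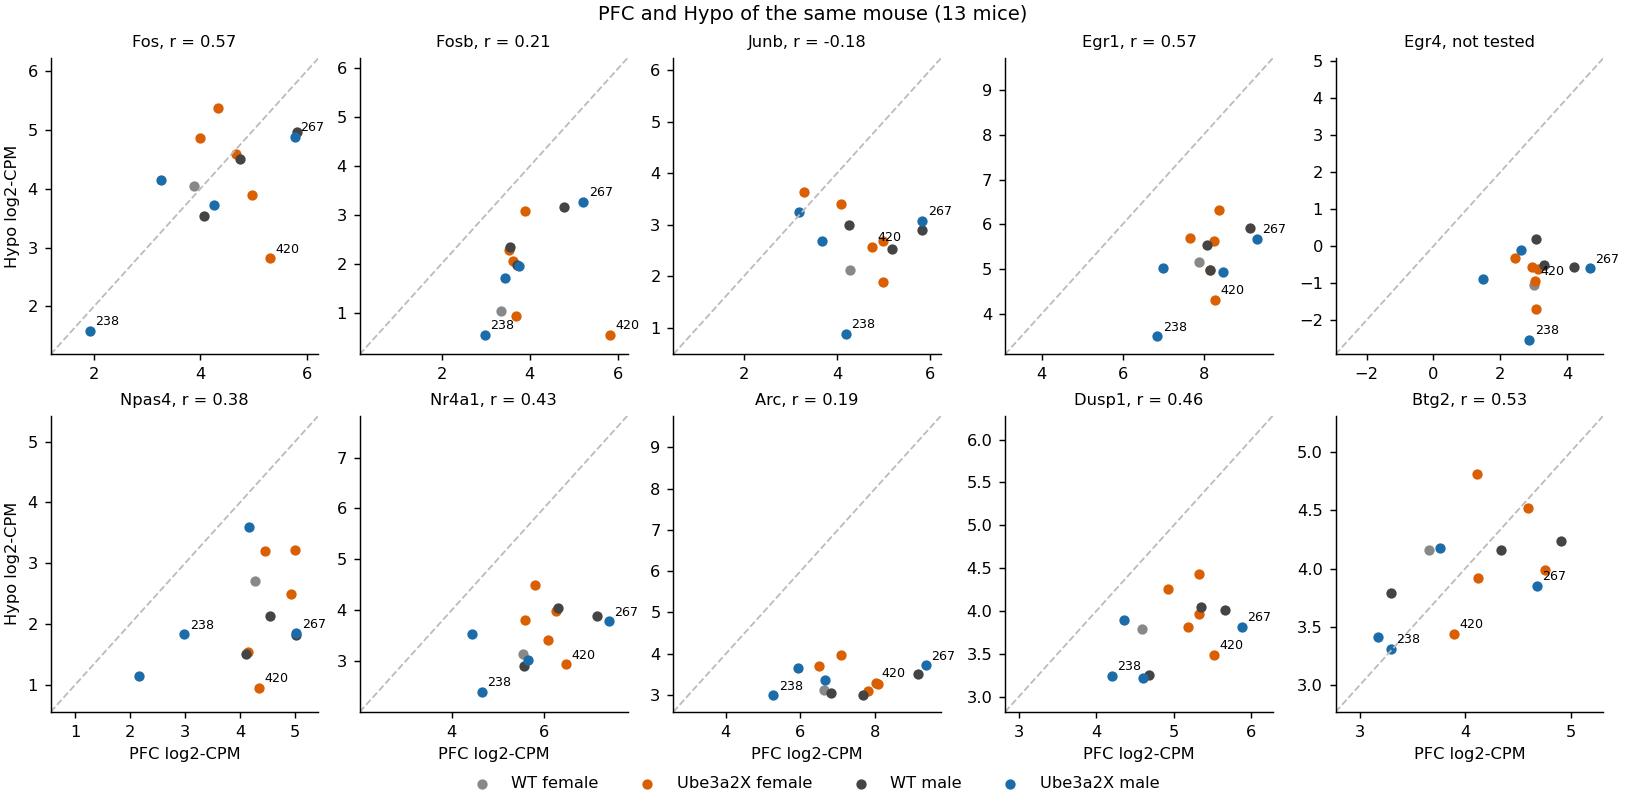
Log2 CPM in PFC (horizontal) and Hypo (vertical) of the 13 mice with both tissues, a panel per gene with Pearson r in its title, a dashed line of equality, and mice 238, 267 and 420 marked. Fos (r 0.572) and Egr1 (r 0.573) show their lowest point at mouse 238, and Arc (r 0.191) spans a wide range in PFC and a narrow one in Hypo.

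Between genotypes, the groups of a sex overlapped for all 10 genes in PFC and all 9 in Hypo. Of all genes kept, Ube3a2X lay wholly above WT for 0.990% and wholly below for 1.43% in PFC females, and for 0.928% and 1.37% in PFC males. The shares were 0.516% and 0.473% in Hypo females and 0.337% and 0.673% in Hypo males. PFC Fos in the WT females was 8.76, 12.2, 14.7, 16.9 and 20.9 CPM and in the Ube3a2X females 16, 20.3, 25.4, 31.5 and 39.7 CPM. In the WT males it was 16.7, 26.7, 27.7, 40.9 and 56.6 CPM and in the Ube3a2X males 3.77, 9.49, 19.0, 19.2 and 54.7 CPM. The Ube3a2X females were thus mostly above the WT females, while 4 of the 5 Ube3a2X males were below all but the lowest WT male and male 267 was near the top.

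PFC Arc had the same layout, with 60.1, 98.4, 109, 212 and 248 CPM in the WT females and 89.4, 136, 224, 258 and 271 CPM in the Ube3a2X females. In the WT males it was 113, 202, 203, 458 and 565 CPM and in the Ube3a2X males 38.6, 61.1, 100.3, 111 and 660.0 CPM. Here 4 of the 5 Ube3a2X males were below the lowest WT male and the other, male 267, was above the highest. PFC Btg2 was 7.80, 12.6, 13.6, 14.3 and 24.2 CPM in the WT females and 14.8, 17.3, 17.4, 24.2 and 27.0 CPM in the Ube3a2X females, with the 5th WT female within the Ube3a2X range. It was 9.84, 20.3, 21.4, 23.2 and 30.1 CPM in the WT males and 8.99, 9.80, 11.4, 13.6 and 25.7 CPM in the Ube3a2X males, so that male 267 was the 1 Ube3a2X male above the 2nd lowest WT male. PFC Dusp1 was 25.6, 40.8, 50.7, 52.1 and 52.7 CPM in the WT males and 18.4, 20.4, 24.2, 24.7 and 58.8 CPM in the Ube3a2X males, again with only male 267 above the lowest WT male. Other genes were laid out differently. PFC Egr1 was 272, 284, 286, 504 and 566 CPM in the WT males and 116, 128, 358, 395 and 635 CPM in the Ube3a2X males, of which 3 were above the median WT male. PFC Egr4 was 7.68, 8.32, 9.83, 15.1 and 18.4 CPM in the WT males and 2.79, 6.18, 7.28, 22.9 and 25.7 CPM in the Ube3a2X males, with 402 and 267 above every WT male and the other 3 below every one.

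In Hypo, Fos was 16.5, 17.9, 23.9 and 45.2 CPM in the WT females and 7.05, 14.8, 24.2, 29.1 and 41.2 CPM in the Ube3a2X females. It was 6.34, 11.5, 22.7 and 31.1 CPM in the WT males and 2.97, 13.2, 17.8, 25.5 and 29.5 CPM in the Ube3a2X males. The genotypes covered much the same range in both sexes.

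With RIN and 2 surrogate variables as covariates, edgeR called 0 of the 10 genes in PFC for the mean of the sexes (0.0183% of all genes called), for females (0.00917%), for males (0.0183%) and for the sex by genotype interaction (0% of 10900 genes). At an unadjusted p under 0.05 the counts were 0, 0, 0 and 1 of 10, where 7.93%, 14.8%, 18.5% and 25.4% of all genes were, and limma-voom and DESeq2 also called 0 of 10 in each of these comparisons, DESeq2 with 712 genes called for the interaction. Their counts at an unadjusted p under 0.05 were 0, 0, 4 and 4 of 10 with limma-voom, against 7.67%, 14.1%, 18.1% and 24.8% of all genes. With DESeq2 they were 0, 0, 1 and 3 of 10, against 8.65%, 16.2%, 19.6% and 26.9%, so that the last was near the share of all genes and the male count below it. In Hypo edgeR, limma-voom and DESeq2 called 0 of the 9 genes for the mean of the sexes (0.00843% called by edgeR), females (0.00843%), males (0%) and the interaction (0%), and 0 of 9 had an unadjusted p under 0.05 in each, where 5.10%, 3.22%, 9.13% and 7.35% of all genes had with edgeR. Of 11869 genes in Hypo, limma-voom called 1, 1, 1 and 0 in these comparisons, and DESeq2 5, 2, 17 and 0. The genotype difference in PFC less that in Hypo was also called by edgeR and DESeq2 for 0 of 9 genes (0% of all genes), with 0 of 9 at an unadjusted p under 0.05.

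The interaction, the Ube3a2X minus WT difference in males less that in females, was negative for all 10 genes in PFC, where 49.9% of all genes tested were negative, with a median log2 value of -1.0 over the 10. The 10 genes varied together and shared the same 20 mice, so their signs are not 10 separate observations. Fos had an interaction of -1.72 (95% interval -3.56 to 0.12, edgeR adjusted p = 0.221) and Npas4 one of -1.32 (edgeR adjusted p = 0.255). Btg2, at -1.21 (95% interval -2.29 to -0.13), was the gene whose interval did not include 0 (edgeR adjusted p = 0.159). Arc had -1.09 with a 95% interval of -3.55 to 1.38 (edgeR adjusted p = 0.563). The values were -1.0 for Fosb (edgeR adjusted p = 0.411), -0.99 for Dusp1 (0.214), -0.92 for Nr4a1 (0.434), -0.71 for Egr1 (0.503), -0.51 for Junb (0.646) and -0.02 for Egr4 (0.986). The 95% intervals of the other 9 genes included 0. The 6 PFC libraries with the higher strand share were all Ube3a2X: males 238, 253, 267 and 402 and females 462 and 468. The split was thus uneven over sex as well as genotype, the groups that the interaction compares. With that share in place of the surrogate variables, a choice made after seeing the data, the median was -0.89. In that fit 0 of 10 were called by edgeR and 2 of 10 had an unadjusted p under 0.05, near the 16.9% of all genes.

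Without male 267 the interaction was -2.52 for Fos and -2.49 for Arc, the median over the 10 genes was -1.52, and 6 of 10 had an unadjusted edgeR p under 0.05 (22.6% of all genes), with 0 called after adjustment. This omission was singled out after seeing the data, as male 267 lay above the other Ube3a2X males. Counts at an unadjusted p under 0.05 are given for it alone among the left-out libraries. Without WT female 397 the median was -1.42, and Egr1 (-1.21), Egr4 (-1.01), Fosb (-1.48) and Junb (-1.32) had their lowest values. The values nearest to 0 with 1 library left out were -0.34 for Egr1 (without male 258), -0.30 for Fosb (without female 420) and -0.15 for Junb (without female 417), and Nr4a1 ran from -1.59 without male 267 to -0.57 without male 258. Without male 238 the interaction was -1.32 for Fos and -0.68 for Arc, with a median of -0.73, the smallest with 1 library left out. The male difference alone was negative for all 10 genes (47.6% of all genes), with values from -0.94 to -0.16 and a median of -0.64, which ran from -1.01 to -0.43 when single libraries were left out, and 7 of 10 had an unadjusted edgeR p under 0.05 without male 267 (15.9% of all genes). Markers of 4 other cell types had positive male differences and interactions in PFC, with 0 called by edgeR. In males the medians were 0.43 for 4 of 4 oligodendrocyte genes (3 at an unadjusted p under 0.05), 0.24 for 4 of 4 endothelium genes (1), 0.21 for 4 of 4 microglia genes (2) and 0.14 for 5 of 5 astrocyte genes (1). Their interactions had medians of 0.31, 0.40, 0.32 and 0.19, with all members of each list positive. Striatum genes were positive in 4 of 4 in males (median 0.20) and 3 of 4 in the interaction (0.13), and thalamus genes in 2 of 2 in both (0.15 and 0.36, Tcf7l2 at an unadjusted p under 0.05 in the interaction). The lists of cortex projection neurons (2 of 4 positive in males, 1 of 4 in the interaction), inhibitory neurons (2 of 5 in both) and blood (3 of 4 and 2 of 4) were mixed in sign. In females 2 of 4 oligodendrocyte genes were positive (median 0.01), 0 of 4 endothelium (-0.16), 1 of 4 microglia (-0.14) and 2 of 5 astrocyte genes (-0.06). Striatum had 3 of 4 positive in females (0.13), thalamus 0 of 2 (-0.21) and cortex projection neurons 3 of 4 (0.12). Inhibitory neurons had 4 of 5 (0.06) and blood 3 of 4 (0.24). The summed levels of the first 4 lists overlapped between WT and Ube3a2X males, at 821 to 1799 and 799 to 2756 CPM for oligodendrocytes, 126 to 204 and 156 to 314 CPM for endothelium, 174 to 239 and 237 to 297 CPM for microglia, and 842 to 1406 and 1074 to 2224 CPM for astrocytes. Their part in the differences of the immediate early genes was not tested. The female difference was positive for 8 of 10, with a median of 0.37. Without WT female 259 it was positive for 6 of 10 with a median of 0.16, and without WT female 397 for 10 of 10 with a median of 0.74. Without male 238 the male difference was positive for 3 of 10. In the mean of the sexes the PFC differences ran from -0.39 for Arc to 0.34 for Fosb. That of Arc was -0.72 without male 267 and -0.056 without WT female 397, and that of Fosb 0.074 without female 420 and 0.50 without WT male 403.

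In Hypo the mean differences between genotypes ran from -0.15 for Junb to 0.20 for Npas4 on the log2 scale. The interaction ran from -0.48 for Fosb to 0.43 for Npas4 and was negative for 7 of 9 genes (56.9% of all genes), with a median of -0.35 that moved between -0.56, without male 404, and 0.22, without WT female 471, when single libraries were left out. Its direction changed under at least 1 alternative or left-out library for 7 of the 9 genes in Hypo and for 1 of the 10, Egr4, in PFC. In the Hypo interaction the pituitary markers had a median of -2.60 (0 of 2 positive) and the blood markers one of -0.54 (0 of 4). The other marker lists had medians from -0.24 for inhibitory neurons to 0.14 for oligodendrocytes. The part of these markers in the interaction of the 9 genes was not tested.

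Other activity-regulated genes gave 0 of 22 called by edgeR for the PFC interaction, with 19 negative and a median of -0.44, and 3 of 22 at an unadjusted p under 0.05 (Crem, Homer1 and Plk2), a share below the 25.4% of all genes. Late response genes gave 0 of 10 called, with 8 negative, a median of -0.43, and 2 of 10 at an unadjusted p under 0.05 (Nrn1 and Rgs2), also below 25.4%. Upstream genes gave 0 of 11 called, with 5 negative and a median of 0.13. At an unadjusted p under 0.05 they had 7 of 11, against 25.4% of all genes, with 4 positive and 3 negative: Camk2a, Camk4, Creb1, Crtc1, Mapk3, Mef2a and Srf.

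**Figure D5:**
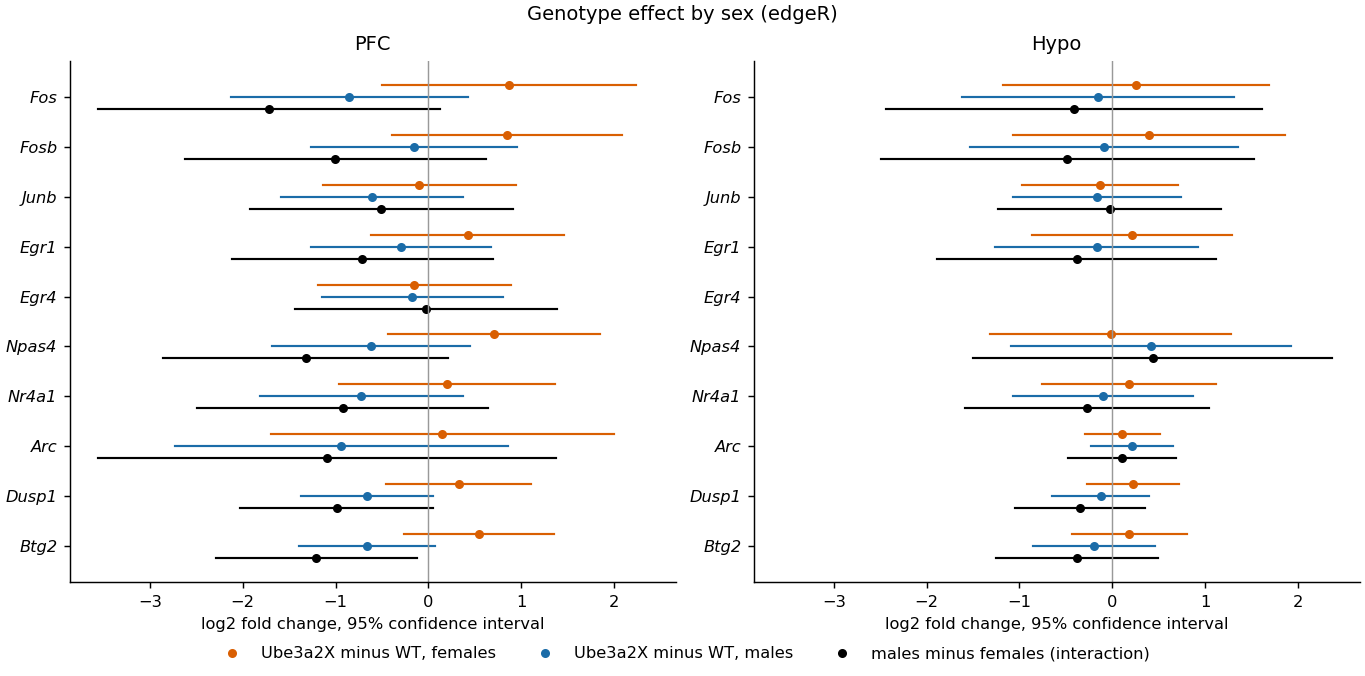
Log2 difference between Ube3a2X and WT in females, in males, and the interaction (males less females), with 95% intervals, for each gene in PFC and Hypo. The PFC interactions run from -1.72 for Fos to -0.02 for Egr4, and 9 of the 10 intervals include 0, all but that of Btg2.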

How the data were processed

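RNA-seq data of 20 PFC and 18 Hypo libraries were used. Stranded mRNA libraries were sequenced by the authors in paired-end mode, and their reads aligned to GRCm38 (STAR) and counted per gene (featureCounts). The deposited count table holds unnormalized counts for 54165 genes, of which 53905 matched the GENCODE vM21 annotation used for positions and exon lengths. The deposited quality table gives a score for RIN, the fraction of intronic bases and of reads on the expected strand, and the ratio of 5′ to 3′ coverage, per library. Groups were taken from the labels, and mice with both tissues were paired by the mouse number that the labels give, taken here to mark the same animal. The same-mouse correlation of deviations from group means ran from -0.555 to 0.412 over 13 mice, so it did not show the pairing on its own.

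The 10 genes and the lists of other activity-regulated, late response, upstream and marker genes were chosen with earlier results of these data known. All 10 were described. Genes under 100 reads in 2 or more libraries were removed, and for the tests within a tissue also the 15% of genes with the lowest variance. Levels are CPM after TMM scaling and log2 CPM with a prior count of 2. Tests used edgeR 4.0.16 (quasi-likelihood, 4 groups, RIN and 2 surrogate variables from sva 3.50.0 within a tissue, and 8 groups with RIN across tissues) in R 4.3.3, with limma 3.58.1 (voom) and DESeq2 1.42.0 as alternatives. Correlations used 100000 permutations (scipy 1.17.1), two-sided. All p-values were Benjamini-Hochberg adjusted over all genes tested, except for the 24 relations with marker sums. The tests were also run on simulated data with known effects, the outcome of which is not given here. No pair of libraries agreed within sampling noise. Depth ran from 36.9 to 380.8 M counted reads per library.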

Additional observations from a re-analysis of the deposited data

Results flagged for a closer look

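In each of the 80 groups of 4 or 5 libraries (10 genes, 8 groups), the gap between an extreme library and its nearest neighbor was compared with Dixon's 95% critical value, which chance exceeds in about 1 in 20 groups. It was exceeded 5 times, by a library far from the others of its group. In PFC, Dusp1 was 58.8 CPM in Ube3a2X male 267 and 18.4 to 24.7 CPM in the other Ube3a2X males, Fosb reached 56.1 CPM in female 420 where the remaining Ube3a2X females spanned 11.4 to 14.8 CPM, and Egr4 was down at 5.39 CPM in female 468 where they spanned 7.77 to 8.64 CPM. Npas4 in PFC was at 4.04 CPM in female 259, below the 15.1 to 22.7 CPM of the remaining WT females. In Hypo, Junb was 1.81 CPM in Ube3a2X male 238 and 6.33 to 9.46 CPM in the other Ube3a2X males.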

How the results depend on the processing

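No alternative called any of the 10 genes between genotypes. The replicate block of the 13 mice with RIN reduced the genes called between tissues from 7 to 4, and the block without RIN, and duplicateCorrelation, gave 7 each. Leaving out single libraries gave 7 throughout. With RIN and surrogate variables removed from the PFC values, 6 genes passed against Fos in place of 2, and in Hypo 1000000 permutations gave 3 in place of 0. Leaving out single libraries gave 0 to 3 in both tissues. Genes above the 95th percentile of spread ranged from 9 to 10 in PFC and 6 to 8 in Hypo.

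Some directions turned, all among values that did not pass. Over all alternatives and left-out libraries, the genotype difference turned at least once for 5 of 10 genes in PFC and 8 of 9 in Hypo, that of males for 3 of 10 and 7 of 9, that of females for 4 of 10 and 8 of 9, and the interaction for 1 of 10 and 7 of 9. Of the genes named with a value, the PFC interaction of Egr4 was 0.027 without the filter, 0.042 with RIN and strand share, 0.25 with RIN only, and -1.01 to 0.26 without single libraries. The Hypo genotype difference of Junb was 0.0017 without the filter, and that of Npas4 -0.029 with limma-voom, -0.020 without the filter and -0.076 to 0.32 without single libraries. The Hypo interaction of Fosb ran from -0.86 to 0.40 without single libraries, and that of Npas4 was -0.058 without the filter and -0.12 to 0.70 without single libraries. Between tissues, Btg2 was -0.67 with the block and RIN, -0.015 with the block alone and -0.11 to 0.26 without single libraries, and Fos ran from -0.14 to 0.57. Without the 2 farthest mice the agreement between tissues was -0.10 for Arc and -0.039 for Fos. The cause was not tested.

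Groups held 4 or 5 mice and 13 mice gave both tissues, 1 of them a WT female. Depth limits Egr4 in Hypo, with 12 to 201 reads per library.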
